A study of Homo sapiens with 12 samples.

Results

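The 37 genes described here belong to the unfolded protein response and to the target genes of the transcription factor ATF4. They were taken by symbol from the 57879 Ensembl identifiers of the expression files, and all 37 had a row and were among the 13907 genes tested. They were ordered by role into 13 chaperones and folding enzymes of the endoplasmic reticulum (ER), 3 genes of ER-associated degradation, 4 genes that hold the stress sensors and XBP1, 9 regulators of the ATF4 arm, and 8 amino acid genes of the ATF4 arm. No measured value entered the choice by rule, but the genes were proposed with earlier results of these data known.

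RNA was sequenced from stable lentiviral lines of A549, an established line from a human lung adenocarcinoma. The TIF1γ cells overexpressed TIF1γ (the protein of the gene TRIM33), and vector cells carried the empty expression construct. The sh-TAF15 cells carried an shRNA against TAF15, and sh-NC cells carried the matching shRNA control construct. The libraries used were 3 of vector (replicates 1, 2 and 3), 2 of TIF1γ (replicates 2 and 3), 1 of sh-NC (replicate 2) and 2 of sh-TAF15 (replicates 2 and 3), out of 12 samples in the labels, and the other samples were not analysed here. Every group, controls included, is a lentivirally transduced line, the labels do not say whether a line is a clone or a pool, and the promoters of the constructs are not named. The labels call the replicates biological but do not say what separated them, so p values measure the spread between these libraries.

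Protein folding stress in the ER is sensed by IRE1 (gene ERN1), ATF6 and PERK (gene EIF2AK3). IRE1 splices the mRNA of XBP1, and spliced XBP1 and cleaved ATF6 switch on chaperones and degradation genes through ER stress elements in their promoters. PERK, like the kinase that senses amino acid shortage, phosphorylates eIF2α, which favours translation of ATF4, and ATF4 then acts with C/EBP partners on genes for amino acid supply and on regulators such as CHOP (gene DDIT3). The 2 branches can therefore move apart in a cell, and the mRNA level of ATF4 or total XBP1 does not show how much active protein was made.

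Promoter motifs were counted by role. In RefSeq windows of GRCh38.p14 (250 bases before to 50 after each start, with a window for 32 of the 37 members), 3 motifs were searched on both strands. The ER stress element, CCAAT and CCACG with 9 free bases between them, was in 7 members, namely HSPA5, HSP90B1, PDIA6, CALR, CANX, CRELD2 and XBP1, so in 6 of the 12 chaperone genes with a window, against 0.0916% of 27305 genes and 0.0769% of 35116 windows. The shorter ER stress element II, ATTGG and CCACG with 1 free base between them, was in HYOU1, SDF2L1 and HERPUD1, against 0.0696% of genes and 0.0541% of windows. The ATF4 and C/EBP composite site, TGATGNAA, was in HERPUD1, ATF3, CHAC1, ASNS and SLC3A2, so in 2 of 8 regulators, 2 of 5 amino acid genes and 1 of 3 degradation genes with a window, against 4.46% of genes and 3.62% of windows. HERPUD1 held both the ER stress element II and the composite site, at positions that did not overlap. A match describes letters, not a site in use. The 7 promoters below belong to members whose levels differed in the main fit between the sh lines and the vector and TIF1γ lines. They are printed 5′ to 3′ on the gene's strand, as the 250 bases before the start, with one kind of motif in capitals, and a motif on the opposite strand appears as its reverse complement. The first 4 carry the ER stress element, the next the ER stress element II and the last 2 the composite site.
HSPA5, chr9:125241344-125241593, minus strand: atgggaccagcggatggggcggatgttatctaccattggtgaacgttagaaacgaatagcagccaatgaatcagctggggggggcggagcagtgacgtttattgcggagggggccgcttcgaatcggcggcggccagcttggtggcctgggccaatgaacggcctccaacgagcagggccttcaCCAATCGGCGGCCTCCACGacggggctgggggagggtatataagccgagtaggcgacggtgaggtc
HSP90B1, chr12:103930160-103930409, plus strand: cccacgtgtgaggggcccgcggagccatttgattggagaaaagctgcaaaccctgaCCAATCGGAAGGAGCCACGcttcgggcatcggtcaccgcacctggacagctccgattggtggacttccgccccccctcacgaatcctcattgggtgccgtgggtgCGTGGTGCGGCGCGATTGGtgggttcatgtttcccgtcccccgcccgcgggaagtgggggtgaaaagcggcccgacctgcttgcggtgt
CRELD2, chr22:49918384-49918633, plus strand: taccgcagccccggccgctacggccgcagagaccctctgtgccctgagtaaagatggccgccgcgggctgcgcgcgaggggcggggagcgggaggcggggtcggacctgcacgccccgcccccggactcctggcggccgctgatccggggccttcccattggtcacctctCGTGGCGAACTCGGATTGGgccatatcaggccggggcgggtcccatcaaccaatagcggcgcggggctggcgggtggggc
XBP1, chr22:28800570-28800819, minus strand: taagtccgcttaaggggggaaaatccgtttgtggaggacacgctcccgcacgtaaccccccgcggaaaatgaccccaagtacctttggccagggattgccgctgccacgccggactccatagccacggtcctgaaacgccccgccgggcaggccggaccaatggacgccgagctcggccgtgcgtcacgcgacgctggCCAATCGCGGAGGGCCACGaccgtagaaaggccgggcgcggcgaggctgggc
HERPUD1, chr16:56931892-56932141, plus strand: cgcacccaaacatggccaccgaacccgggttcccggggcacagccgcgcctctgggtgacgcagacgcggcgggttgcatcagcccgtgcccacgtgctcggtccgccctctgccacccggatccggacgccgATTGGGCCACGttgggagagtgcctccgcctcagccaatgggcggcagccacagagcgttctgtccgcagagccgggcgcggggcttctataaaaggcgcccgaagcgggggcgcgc
CHAC1, chr15:40953221-40953470, plus strand: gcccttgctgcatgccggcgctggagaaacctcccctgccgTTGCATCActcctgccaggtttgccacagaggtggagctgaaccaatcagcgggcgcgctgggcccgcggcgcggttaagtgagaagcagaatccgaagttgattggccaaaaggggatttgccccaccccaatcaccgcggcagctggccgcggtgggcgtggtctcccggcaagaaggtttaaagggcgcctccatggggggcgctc
ASNS, chr7:97872409-97872658, minus strand: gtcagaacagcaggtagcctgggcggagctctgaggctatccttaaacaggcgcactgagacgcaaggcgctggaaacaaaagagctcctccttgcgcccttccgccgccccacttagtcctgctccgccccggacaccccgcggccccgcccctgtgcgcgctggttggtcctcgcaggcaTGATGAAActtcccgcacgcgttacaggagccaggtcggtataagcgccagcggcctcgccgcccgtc
Of the 4 genes printed with the ER stress element, HSPA5 and HSP90B1 were higher on average in the sh lines. CRELD2 and XBP1 were lower there, so genes with the same element lay on both sides of the comparison below. HSP90B1 is shown with 2 copies of it.

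FPKM, fragments per unit of transcript length and per mapped total, are levels per length and can be compared between genes. They carry no read totals, so the depth behind each value is unknown. The smallest steps in low values put the relative depth of the libraries between 76.1% and 100% of that of vector replicate 3, and between 12132 and 12622 genes per library reached 1 FPKM. TRIM33 reached 8.03 and 6.14 FPKM with TIF1γ and lay between 1.27 and 2.23 FPKM in vector. TAF15 was not matched by symbol, and ENSG00000172660, recalled as its older identifier with no way to check it here, had 107 FPKM in sh-NC and 26.3 and 17.4 FPKM in sh-TAF15. The summed level of 9 lung epithelial markers was 11680 to 13500 FPKM in vector, 2421 to 3812 in TIF1γ, 4232 in sh-NC and 4915 to 6322 in sh-TAF15. KRT8 and KRT18 carried that order, since they were listed at 0 in both TIF1γ libraries, which may be failed estimates, and were set aside from the tests. Without them the sum was 1809 to 2028 FPKM in vector and 2421 to 3812 in TIF1γ. It was 1706 in sh-NC and 1519 to 1928 in sh-TAF15, and most of it was KRT7. KRT19 was at 26.9 to 41.6 FPKM in vector and at 61.5 and 61.7 in TIF1γ, but at 0.243 to 0.775 in the sh libraries. EPCAM was at 1.80 to 3.75 FPKM in vector and at 2.72 and 1.25 in TIF1γ. In the sh libraries EPCAM was at 0.436 to 1.87, which overlapped the others. Of the alveolar markers, NKX2-1 was at most 0.207 FPKM, SFTPB at most 0.0181, SFTPC at most 1.42 and NAPSA at most 1.76. Of 9 leukocyte markers CD14 and ITGAM reached 1 FPKM (PTPRC at most 0.0227, CD3E and MS4A1 listed at 0 throughout), of 5 matched endothelial markers 0 did, and of 7 fibroblast markers COL1A1 and COL1A2 did. The summed leukocyte level, most of it CD14, was 12.3 to 24.7 FPKM in vector with vector replicate 3 highest, 29.96 to 35.8 in TIF1γ, 7.01 in sh-NC and 8.62 to 11.8 in sh-TAF15. The summed fibroblast level was 4.31 to 6.05 FPKM in the sh libraries and 0.403 to 1.65 FPKM in the others. The part of both sums in the results below was not tested. How reads shared with the annotated pseudogenes of ATF4, ASNS, HSPA5, HSP90B1, MTHFD2, PDIA3, PSAT1, PSPH and XBP1 were counted is not given in the sources used here, so the levels of these genes carry that uncertainty. In such bulk libraries, fewer cells with a transcript and less of it per cell cannot be told apart.

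Vector replicate 3 stood apart from the other vector libraries in the ATF4 arm, and the counts or medians of each comparison that uses it are also given without it. All 9 regulators were higher in it than in both other vector libraries after scaling, against 41.9% of all genes, and 6 of the 9 were higher by at least 1 log2 unit, against 3.15% of all genes (438 of 13907). CHAC1 stood 2.83 log2 units above the mean of vector replicates 1 and 2, SESN2 1.57, DDIT3 1.28 and TRIB3 1.25. Of the 8 amino acid genes 7 were higher, with a median of 0.43. The chaperones were lower in 8 of 13, against 38.1% of all genes, with a median of −0.25, led by HSP90B1 at −0.80 and MANF at −0.79. Within the TIF1γ group, replicate 3 likewise lay above replicate 2 in 9 of 9 regulators, with a median of 1.23, and in 6 of 8 amino acid genes, with a median of 1.18, while 54.9% of all genes were higher in replicate 3. ASNS differed by 2.04, MTHFD2 by 1.80 and PSAT1 by 1.68 log2 units between these 2 libraries, and SDF2L1 by −1.62. The sh-TAF15 libraries differed by medians of 0.02 for chaperones, 0.10 for regulators and 0.01 for amino acid genes. These are values of single libraries with no test.

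**Figure D1:**
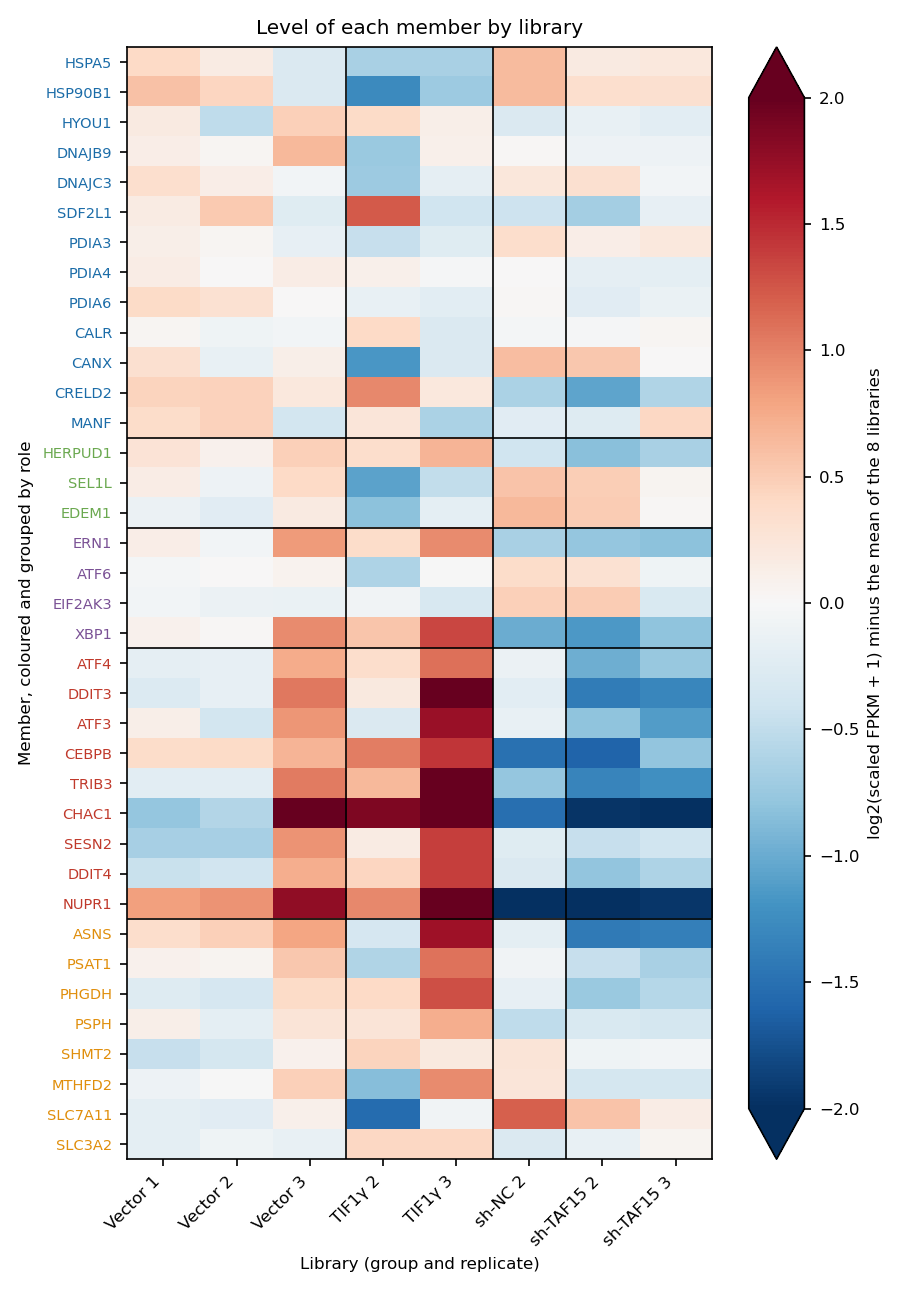
Heat map of log2(scaled FPKM + 1) for the 37 members (rows, grouped by role) in the 8 libraries (columns), as the difference from the member's mean over the libraries. The ATF4 arm regulators are high in vector replicate 3 and TIF1γ replicate 3. Their median is −1.325 and −1.113 in the sh-TAF15 libraries. In sh-NC it is −0.29, beside −0.21 in vector replicates 1 and 2. HSPA5 and HSP90B1 are low in the TIF1γ libraries.

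The levels themselves spanned a wide range. Averaged over the 8 libraries, CALR, the lectin chaperone calreticulin, had the highest level at 604 FPKM, followed by SLC3A2 at 523, ATF4 at 326 and DDIT4 at 277 FPKM. The lowest were EIF2AK3 at 2.87, DNAJC3 at 3.17, ATF3 at 3.37 and ERN1 at 3.69 FPKM. Neighbours in this order overlapped in the range of their libraries. The steadiest member was PDIA4, an oxidoreductase, whose highest library was 1.23 times its lowest, and the widest were CHAC1 at 67.5 times and NUPR1 at 50.3 times.

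The largest number of calls came from setting the sh lines, the mean of sh-NC and sh-TAF15, against the mean of the vector and TIF1γ lines. In limma, with Benjamini-Hochberg adjustment over all 13907 genes, 19 of the 37 members passed an adjusted p of 0.05, 6 of them higher and 13 lower in the sh lines. Of all genes 41.5% passed (19.9% higher, 21.6% lower). The members were proposed with earlier results of these data known, so their share is no test of the set. ATF4 arm regulators were below 0 in 9 of 9, with 6 called and a median log2 fold change of −1.46, while the median of all genes was 0.00. The chaperones had a median of −0.03, with 3 called higher and 1 lower, the degradation genes 0.74, with 2 called higher and 1 lower, the sensors and XBP1 −0.41, with 2 called lower, and the amino acid genes −0.42, with 1 called higher and 3 lower. The groups of libraries did not overlap after scaling in 2 members that were higher and 9 that were lower in the sh lines, where 15.9% and 18.0% of all genes did not. Each mean also holds a manipulated line, sh-TAF15 or TIF1γ, so both manipulations enter this comparison along with the construct family. Construct family, its virus and any separate handling of the lines cannot be told apart here.

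**Figure D2:**
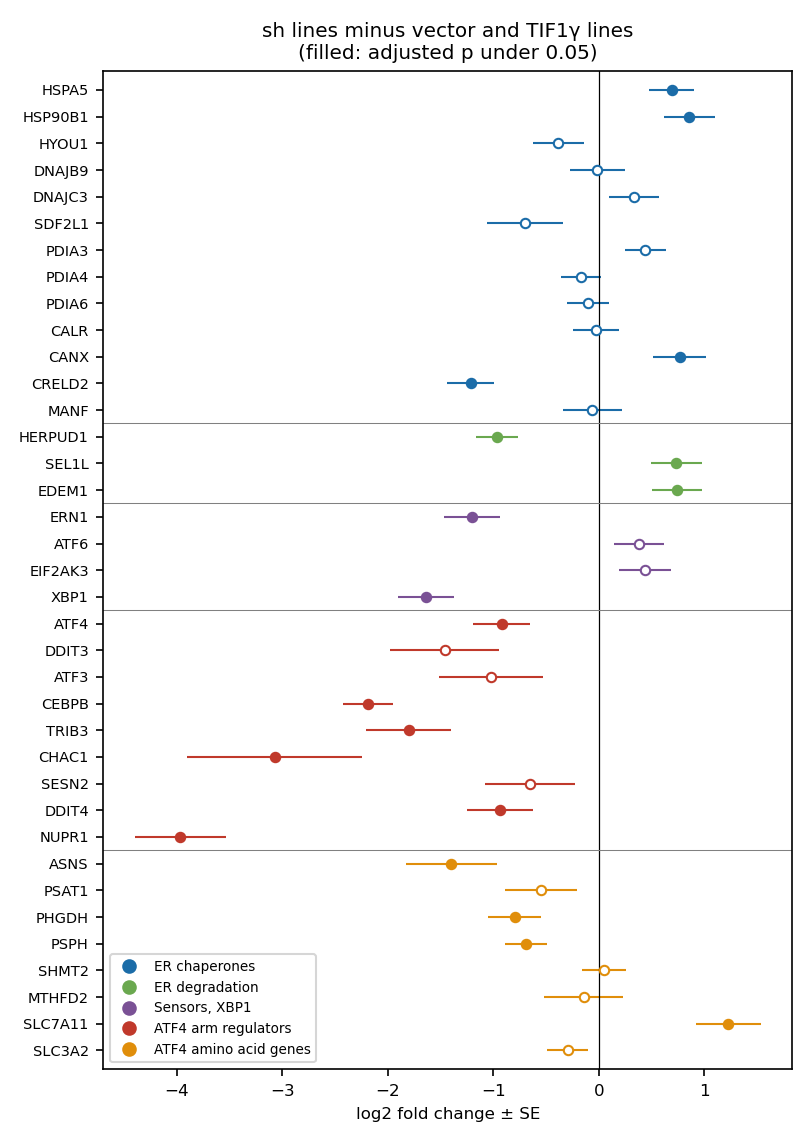
Log2 fold change of each member between the sh lines (3 libraries) and the vector and TIF1γ lines (5 libraries), with the standard error as bars, coloured by role. Filled points passed an adjusted p of 0.05, and all 9 ATF4 arm regulators lie left of 0.

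Base composition moved with this comparison. The median transcript GC content was 46.0% for chaperones and 58.1% for ATF4 arm regulators, against 49.5% over 13534 genes. With the trend of each library with GC content and length removed, 10 members were called, 0 higher and 10 lower, where 30.4% of all genes passed. The 6 higher calls did not pass then, nor did ATF4, DDIT4 and PHGDH, while the regulators kept a median of −1.24 and 9 of 9 values below 0. Without vector replicate 3, 19 were called (39.5% of all genes), with ASNS lost and DDIT3 gained. Without sh-TAF15 replicate 2, 12 were called, 3 higher and 9 lower. The part of GC content in the fold changes was not tested beyond this. In the next paragraphs, values are FPKM as deposited, listed in the order of the replicate numbers above within each group, and tests are limma with Benjamini-Hochberg adjustment on log2(scaled FPKM + 1).

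Among the chaperones, HSPA5, HSP90B1 and CANX were called higher in the sh lines than in the vector and TIF1γ lines, and CRELD2 lower. Between sh-NC and vector alone, the first 3 were not called. Their log2 fold changes there were 0.54 (adjusted p = 0.288), 0.39 (adjusted p = 0.514) and 0.53 (adjusted p = 0.376). HSPA5, which encodes the Hsp70 chaperone BiP, was at 159.9, 138 and 94.9 FPKM in vector, 85.1 and 75.3 in TIF1γ, 212 in sh-NC and 159 and 167 in sh-TAF15. The sh-NC library was highest, both TIF1γ libraries were lowest, and the sh-TAF15 libraries lay on either side of vector replicate 1. The log2 fold change of HSPA5 was 0.69 (SE 0.21, adjusted p = 0.0193), and 0.38 (adjusted p = 0.134) with the GC trend removed. HSP90B1, the ER Hsp90 (GRP94), stood at 178, 162 and 92.6 FPKM in vector, 53.3 and 69.8 in TIF1γ, 207 in sh-NC and 173 and 178 in sh-TAF15. HSP90B1 too was highest in sh-NC, and vector replicate 3 and the TIF1γ libraries were the lowest. The sh lines exceeded the others by 0.86 (SE 0.24, adjusted p = 0.013). CANX, the membrane-bound lectin chaperone calnexin, had 132, 95.6 and 109 FPKM in vector, 50.8 and 84.4 in TIF1γ, 183 in sh-NC and 178 and 127 in sh-TAF15. Its sh-TAF15 replicate 3 lay within the vector range, and the log2 fold change was 0.77 (SE 0.25, adjusted p = 0.025).

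CRELD2, a small ER protein that aids folding, gave 45.7, 46.7 and 36.9 FPKM in vector, 72.4 and 38.2 in TIF1γ, 23.8 in sh-NC and 17.9 and 25.9 in sh-TAF15. All 3 sh libraries lay below the 5 others, with a log2 fold change of −1.21 (SE 0.22, adjusted p = 0.0011), and −0.53 (adjusted p = 0.0324) with the GC trend removed. CALR gave 575, 537 and 515 FPKM in vector, 816 and 449 in TIF1γ, 613 in sh-NC and 637 and 691 in sh-TAF15. The 2 TIF1γ libraries were the extremes of CALR, and enclosed all others (log2 fold change −0.03, SE 0.22, adjusted p = 0.929). PDIA4 was at 149.8, 138 and 144 FPKM in vector, 160.4 and 131 in TIF1γ, 153 in sh-NC and 138 and 141 in sh-TAF15, and the TIF1γ libraries were its highest and its lowest (log2 fold change −0.17, SE 0.19, adjusted p = 0.497). DNAJB9, a J-domain cochaperone of BiP, had 4.95, 4.66 and 7.16 FPKM in vector, 2.48 and 4.71 in TIF1γ, 5.11 in sh-NC and 4.68 and 4.83 in sh-TAF15. TIF1γ replicate 2 was low and vector replicate 3 high for DNAJB9, and its log2 fold change was −0.01 (SE 0.26, adjusted p = 0.971). The other 6 folding members did not pass. Of these, the disulfide isomerases PDIA3 and PDIA6 ranged over 111 to 199.6 and 154 to 238 FPKM, the BiP exchange factor HYOU1 over 12.8 to 26.5, the cochaperones DNAJC3 and SDF2L1 over 1.51 to 4.45 and 96.7 to 347, and the secreted factor MANF over 49.7 to 126 FPKM. Only PDIA3 among the 13 was higher in every sh library than in every other library, but it was not called (log2 fold change 0.44, SE 0.19, adjusted p = 0.0832).

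The degradation genes split. SEL1L is the scaffold of the HRD1 ubiquitin ligase complex, and EDEM1 hands misfolded glycoproteins to degradation. Both were called higher in the sh lines than in the vector and TIF1γ lines. HERPUD1, a membrane adaptor of the HRD1 complex, was called lower. SEL1L was at 6.03, 5.03 and 7.08 FPKM in vector, 2.28 and 3.46 in TIF1γ, 9.50 in sh-NC and 9.11 and 6.71 in sh-TAF15 (log2 fold change 0.74, SE 0.24, adjusted p = 0.0267). EDEM1 was at 6.58, 6.18 and 8.02 FPKM in vector, 4.07 and 6.08 in TIF1γ, 13.5 in sh-NC and 12.4 and 8.85 in sh-TAF15 (log2 fold change 0.74, SE 0.24, adjusted p = 0.0244). For both genes sh-NC was highest and TIF1γ replicate 2 lowest, and neither call held with the GC trend removed. HERPUD1 was at 34.8, 30.6 and 38.4 FPKM in vector, 40.4 and 45.2 in TIF1γ, 24.1 in sh-NC and 18.0 and 21.3 in sh-TAF15. Every sh library was below every other library, with a log2 fold change of −0.97 (SE 0.20, adjusted p = 0.002), and HERPUD1 passed in all 17 alternative settings that gave a value.

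Of the sensors, ERN1 was called lower in the sh lines, as was XBP1, the transcript that the IRE1 enzyme splices. ERN1 stood at 3.52, 3.05 and 6.13 FPKM in vector, 4.78 and 6.82 in TIF1γ, 1.89 in sh-NC and 1.66 and 1.65 in sh-TAF15. XBP1 stood at 65.8, 63.4 and 114 FPKM in vector, 101 and 154 in TIF1γ, 34.3 in sh-NC and 31.6 and 41.6 in sh-TAF15. In both genes the 3 sh libraries were the 3 lowest and TIF1γ replicate 3 was the highest. Their log2 fold changes were −1.20 (SE 0.27, adjusted p = 0.00343) for ERN1 and −1.64 (SE 0.27, adjusted p = 5.49e-04) for XBP1, and each passed in all 17 alternatives. EIF2AK3 was at 2.45, 2.36 and 2.17 FPKM in vector, 2.67 and 1.85 in TIF1γ, 4.49 in sh-NC and 4.72 and 2.28 in sh-TAF15. The 2 sh-TAF15 libraries of EIF2AK3 differed by more than the vector libraries did, and it was not called (log2 fold change 0.44, SE 0.25, adjusted p = 0.164), nor was ATF6, which ranged over 2.50 to 6.08 FPKM.

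In the ATF4 arm, ATF4, CEBPB, TRIB3, CHAC1, DDIT4 and NUPR1 were called lower in the sh lines than in the vector and TIF1γ lines. ATF4 mRNA was at 249, 256 and 454 FPKM in vector, 397 and 593 in TIF1γ, 293 in sh-NC and 165 and 199.7 in sh-TAF15. The sh-NC library lay between vector replicates 2 and 3, and the sh-TAF15 libraries were the lowest of the 8. The log2 fold change of ATF4 was −0.92 (SE 0.27, adjusted p = 0.0158), and −0.48 (adjusted p = 0.233) with the GC trend removed. CEBPB, a C/EBP partner that ATF4 can bind, had 164, 167 and 194 FPKM in vector, 283 and 337 in TIF1γ, 50.2 in sh-NC and 47.6 and 87.4 in sh-TAF15. Its 4 groups were ordered with TIF1γ above vector and both above all sh libraries, and the sh lines differed by −2.19 (SE 0.23, adjusted p = 1.56e-05).

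TRIB3, a pseudokinase induced by ATF4, had 46.8, 47.5 and 108 FPKM in vector, 94.5 and 222 in TIF1γ, 35.3 in sh-NC and 24.4 and 27.2 in sh-TAF15. CHAC1, a glutathione-degrading enzyme, had 2.64, 3.20 and 25.2 FPKM in vector, 23.7 and 43.1 in TIF1γ, 1.38 in sh-NC and 0.739 and 0.638 in sh-TAF15. Both genes were lowest in the 3 sh libraries, and vector replicate 3 lay with the TIF1γ libraries rather than with the other vector libraries. Their log2 fold changes were −1.80 (SE 0.40, adjusted p = 0.00819) for TRIB3 and −3.07 (SE 0.83, adjusted p = 0.0363) for CHAC1. NUPR1, a small stress-induced chromatin protein, gave 39.4, 42.1 and 73.3 FPKM in vector, 47.9 and 144 in TIF1γ, 2.86 in sh-NC and 3.52 and 5.90 in sh-TAF15. This was the widest gap between the construct families among the members, with every sh library at 5.90 FPKM or less and every other at 39.4 FPKM or more (log2 fold change −3.97, SE 0.43, adjusted p = 3.19e-04).

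DDIT4, an inhibitor of mTORC1 signalling, gave 171, 180.3 and 369 FPKM in vector, 347 and 600.2 in TIF1γ, 214 in sh-NC and 155 and 181 in sh-TAF15. The sh-NC library exceeded vector replicates 1 and 2, so the groups overlapped (log2 fold change −0.94, SE 0.32, adjusted p = 0.0325). DDIT3, which encodes CHOP, gave 11.7, 12.9 and 29.7 FPKM in vector, 18.5 and 64.4 in TIF1γ, 13.9 in sh-NC and 5.64 and 6.32 in sh-TAF15. DDIT3 was lowest in sh-TAF15 and highest in TIF1γ replicate 3, and with a log2 fold change of −1.46 (SE 0.52, adjusted p = 0.0608) it was not called. ATF3, a stress-induced repressor, gave 2.83, 1.78 and 5.26 FPKM in vector, 2.11 and 10.5 in TIF1γ, 2.47 in sh-NC and 1.23 and 0.805 in sh-TAF15, and it was not called either (log2 fold change −1.02, SE 0.49, adjusted p = 0.13). SESN2, a leucine sensor of the sestrin family, ranged over 3.58 to 17.5 FPKM, also with no call (log2 fold change −0.65, SE 0.43, adjusted p = 0.247).

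**Figure D3:**
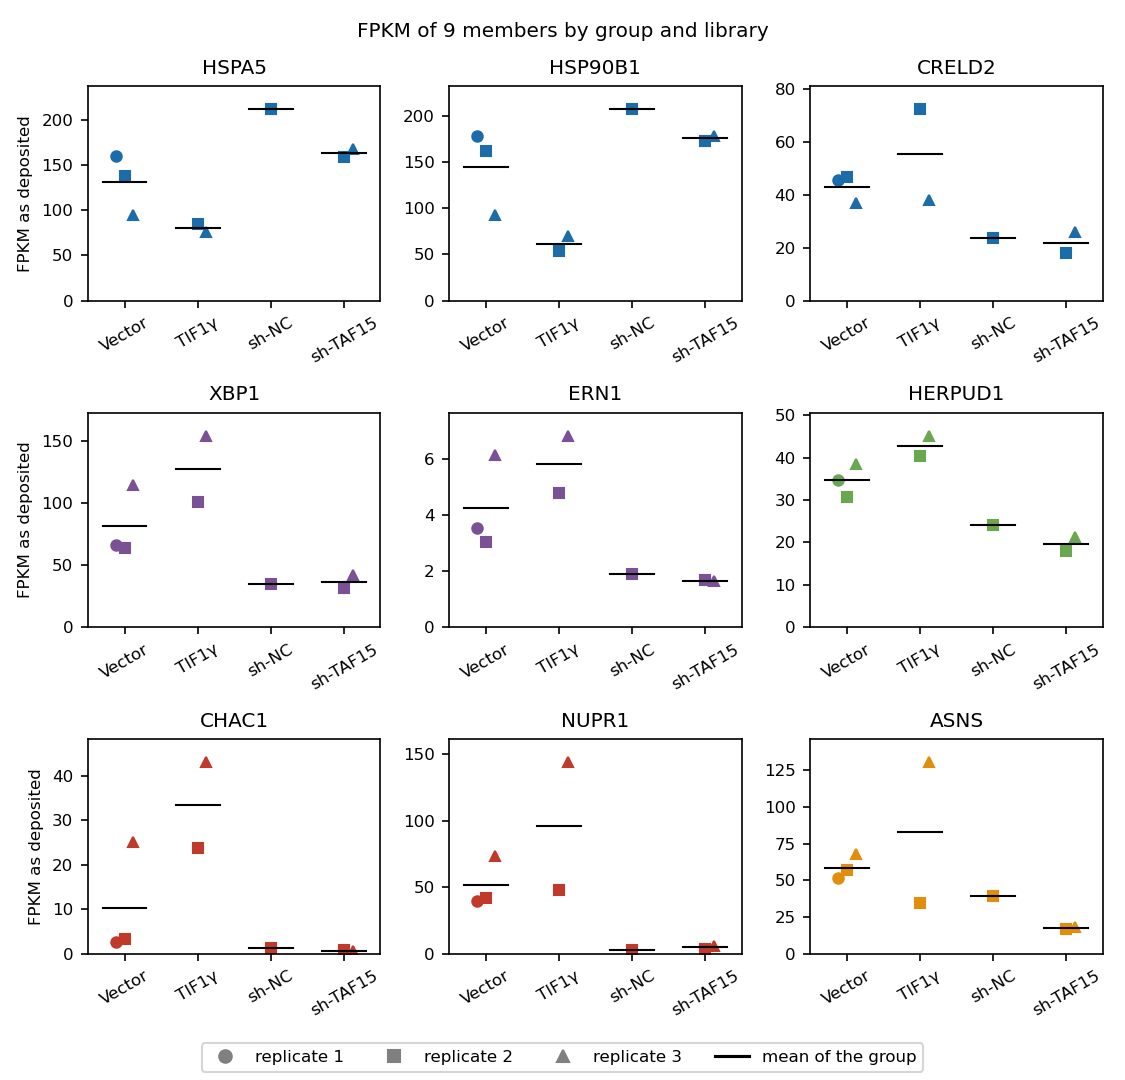
FPKM as deposited (vertical axes from 0) for 9 members in the 4 groups, with each library as a point shaped by replicate number and the group mean as a line. The sh libraries lie below every other library for CRELD2, XBP1, ERN1, HERPUD1, CHAC1 and NUPR1, while HSPA5 and HSP90B1 are lowest in TIF1γ.

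The amino acid genes did not move as one. ASNS, PHGDH and PSPH were called lower in the sh lines than in the vector and TIF1γ lines, and SLC7A11 higher. Of 17 alternative settings, ASNS passed in 11, PHGDH in 9, PSPH in 14 and SLC7A11 in 13. For PHGDH the sh-NC library exceeded vector replicates 1 and 2. ASNS, asparagine synthetase, was at 51.7, 57.0 and 67.7 FPKM in vector, 34.8 and 131 in TIF1γ, 39.5 in sh-NC and 16.8 and 18.1 in sh-TAF15. The TIF1γ libraries were the highest and the third lowest of the 8, with sh-TAF15 lowest, and the log2 fold change was −1.40 (SE 0.43, adjusted p = 0.0338). In serine synthesis, PHGDH, the first enzyme, had 41.2, 39.4 and 62.0 FPKM in vector, 71.6 and 119.8 in TIF1γ, 49.6 in sh-NC and 33.6 and 39.2 in sh-TAF15 (log2 fold change −0.80, SE 0.25, adjusted p = 0.0225). PSAT1, the aminotransferase that follows, had 66.3, 65.2 and 86.7 FPKM in vector, 44.8 and 130.5 in TIF1γ, 66.5 in sh-NC and 51.9 and 47.3 in sh-TAF15, and was not called (log2 fold change −0.55, SE 0.34, adjusted p = 0.219). For PSPH, the phosphatase of the last step, the values were 31.9, 25.9 and 33.7 FPKM in vector, 38.8 and 48.5 in TIF1γ, 23.1 in sh-NC and 27.5 and 27.3 in sh-TAF15 (log2 fold change −0.69, SE 0.20, adjusted p = 0.0158). As deposited, vector replicate 2 lay below both sh-TAF15 libraries for PSPH, and after scaling it lay above them. PHGDH was highest in the 2 TIF1γ libraries, as was PSPH, while PSAT1 was highest and lowest in them.

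The cystine transporter is made of SLC7A11 and SLC3A2, of which SLC7A11 was called. SLC7A11, the light chain, was at 8.37, 8.20 and 10.0 FPKM in vector, 3.00 and 8.998 in TIF1γ, 26.3 in sh-NC and 17.1 and 13.0 in sh-TAF15. All 3 sh libraries lay above the 5 others, with a log2 fold change of 1.23 (SE 0.31, adjusted p = 0.00725), and 0.56 (adjusted p = 0.145) with the GC trend removed. SLC3A2, the heavy chain shared with other transporters, was at 419, 462 and 415 FPKM in vector, 706 and 629 in TIF1γ, 446 in sh-NC and 504 and 600.0 in sh-TAF15. It was highest in TIF1γ and was not called (log2 fold change −0.30, SE 0.20, adjusted p = 0.236). The mitochondrial folate enzymes SHMT2 and MTHFD2 ranged over 93.6 to 194 and 56.3 to 177.5 FPKM and were not called.

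The 2 negative controls were compared on their own, with the lone sh-NC library assumed to vary like the other groups. Of the 37 members 3 were called lower in sh-NC than in vector and 0 higher, where 11.0% of all genes passed (3.73% higher, 7.31% lower). They were NUPR1 with a log2 fold change of −3.87 (SE 0.65, adjusted p = 0.00881), CEBPB with −1.96 (SE 0.36, adjusted p = 0.00305) and XBP1 with −1.35 (SE 0.40, adjusted p = 0.0494). All 9 regulators were below 0, with a median of −0.41, but the median was −0.03 without vector replicate 3, where 2 members were called and 8.64% of all genes passed. This comparison shares the vector and sh-NC libraries with the ones above and below. The call for XBP1 lay at the edge of the threshold, and 5 members were called when TIF1γ replicate 2, which sets part of the spread, was left out.

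TIF1γ overexpression asks how the gene set differs from vector when TIF1γ is raised. In limma with Benjamini-Hochberg adjustment, 0 of the 37 members were called, where 0.0216% of all genes passed, and at an unadjusted p under 0.05 there were 6 higher and 4 lower members, where 8.89% and 11.1% of all genes lay. The 9 regulators were all above 0, with a median log2 fold change of 0.91, while 9 of 13 chaperones were below 0, with a median of −0.36, and the median of all genes was 0.03. The amino acid genes had a median of 0.29 with 6 of 8 above 0, the degradation genes −0.46 and the sensors and XBP1 0.13. With the GC trend removed, the medians were 0.57 for regulators, −0.25 for chaperones and 0.32 for amino acid genes. Without vector replicate 3 they were 1.33, −0.44 and 0.40. Without TIF1γ replicate 3, which leaves 1 TIF1γ library, 7 members changed sign. The chaperone median minus the amino acid median was then −0.0659, against −0.64 with all libraries. After scaling, the libraries of the 2 groups did not overlap in 4 higher and 7 lower members, where 17.7% and 19.0% of all genes did not.

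The 3 members with the lowest adjusted p for TIF1γ were HSP90B1, SEL1L and PHGDH. HSP90B1 averaged 61.6 ± 11.7 FPKM (SD, n = 2) in TIF1γ and 144 ± 45.5 FPKM (SD, n = 3) in vector, with a log2 fold change of −1.24 (SE 0.29, adjusted p = 0.198). SEL1L averaged 2.87 ± 0.836 FPKM (SD, n = 2) against 6.05 ± 1.03 (SD, n = 3), with −0.93 (SE 0.29, adjusted p = 0.198). PHGDH averaged 95.7 ± 34.1 FPKM (SD, n = 2) against 47.5 ± 12.6 (SD, n = 3), with 0.91 (SE 0.30, adjusted p = 0.198). For each of these 3 genes both TIF1γ libraries lay outside the vector range. HSPA5 had a log2 fold change of −0.74 (SE 0.25, adjusted p = 0.199), CANX −0.82 (SE 0.30, adjusted p = 0.206), CEBPB 0.75 (SE 0.28, adjusted p = 0.209), TRIB3 1.14 (SE 0.48, adjusted p = 0.242) and DDIT4 0.95 (SE 0.38, adjusted p = 0.217). CHAC1 averaged 33.4 ± 13.7 FPKM (SD, n = 2) in TIF1γ and 10.4 ± 12.9 FPKM (SD, n = 3) in vector, and its log2 fold change was 2.10 (SE 0.99, adjusted p = 0.299). Vector replicate 3 of CHAC1 lay above TIF1γ replicate 2, so the groups overlapped. Without vector replicate 3, HSP90B1 at −1.51 (limma adjusted p = 0.0426) and CHAC1 at 3.05 (adjusted p = 0.0178) were called, where 2.20% of all genes passed. With the GC and length trend removed as well, 0 members were called.

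TAF15 silencing was compared with sh-NC, so each value rests on 1 control library. In limma 0 of 37 members were called, where 0.0575% of all genes passed, and 0 had an unadjusted p under 0.05, where 5.59% of all genes did. Of the 37 members 29 lay below 0. The regulators had a median of −0.50, with 7 of 9 below 0, the amino acid genes −0.49, with 6 of 8 below 0, and the chaperones −0.18, with 10 of 13 below 0, while the median of all genes was −0.00. With the GC and length trend removed, these medians were −0.715 for regulators, −0.43 for amino acid genes and −0.11 for chaperones, and 8 members changed sign. The lowest adjusted p values belonged to ATF4 with a log2 fold change of −0.75 (SE 0.43, adjusted p = 0.923), SLC7A11 with −0.83 (SE 0.49, adjusted p = 0.93) and ASNS with −1.19 (SE 0.69, adjusted p = 0.943). After scaling, both sh-TAF15 libraries were below sh-NC in 25 of the 37 members, these 3 genes and DDIT3 (log2 fold change −1.15, SE 0.83, adjusted p = 0.955) among them, where 37.8% of all genes were. Both sh-TAF15 libraries were above sh-NC in 5 members, where 35.3% of all genes were. On the other side of 0, CEBPB had 0.29 (SE 0.38, adjusted p = 0.962), NUPR1 0.47 (SE 0.69, adjusted p = 0.964) and SLC3A2 0.24 (SE 0.31, adjusted p = 0.964).

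**Figure D4:**
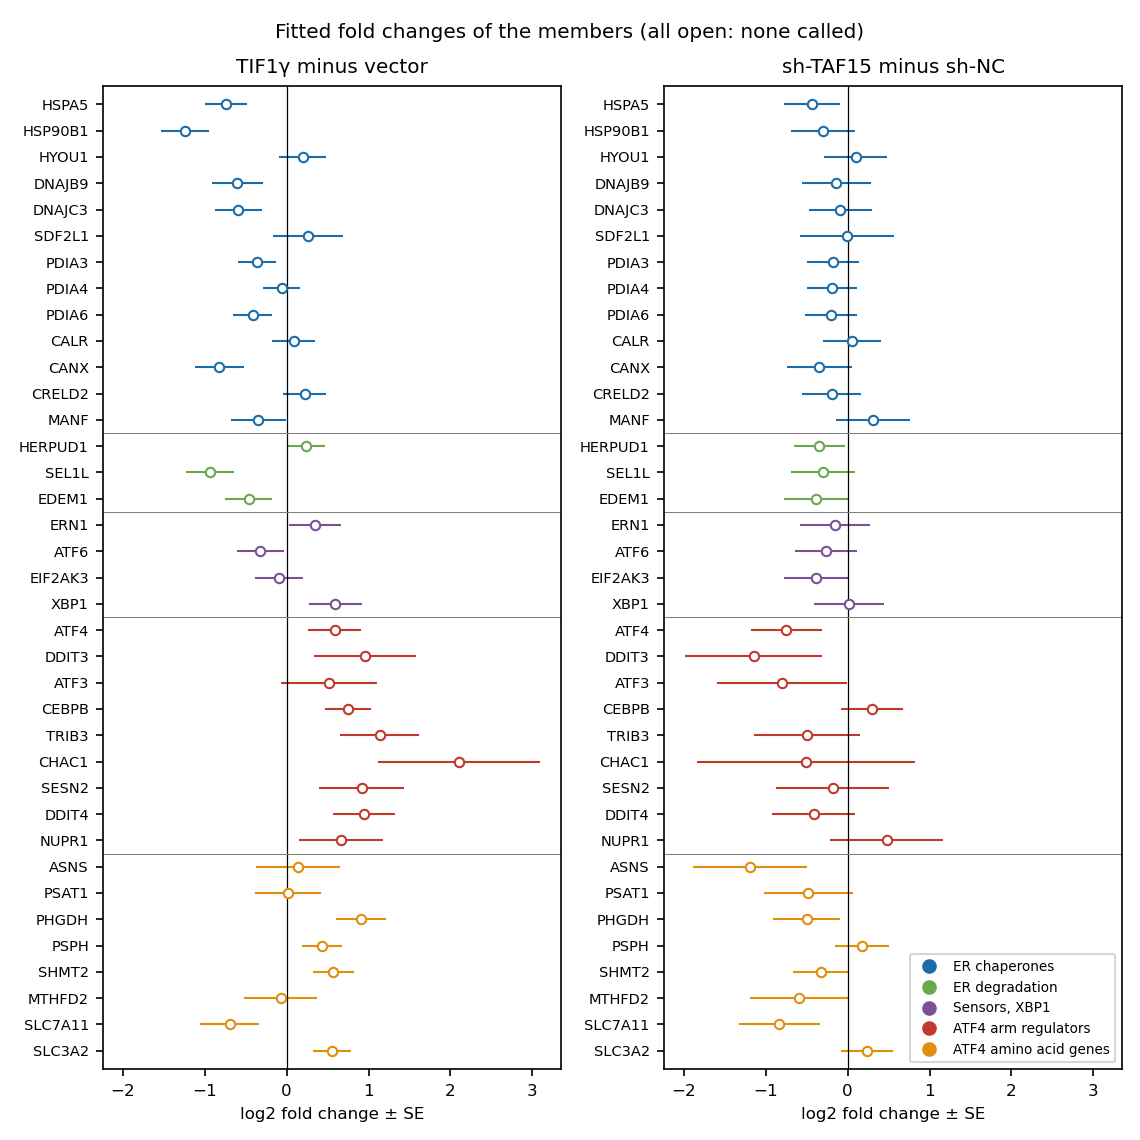
Log2 fold change with its standard error for each member, with TIF1γ against vector in the left panel and sh-TAF15 against sh-NC in the right panel, coloured by role. None of the points passed an adjusted p of 0.05, and the 9 regulators lie right of 0 on the left panel and 7 of them left of 0 on the right panel.

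The effect of TIF1γ minus that of TAF15 silencing was tested as a contrast of its own, on the libraries of both comparisons. Limma called 0 of 37 members, where 0.0431% of all genes passed, and 3 members had an unadjusted p under 0.05 with a higher value under TIF1γ, where 1.72% of all genes did, and 0 a lower one, where 1.93% did. They were PHGDH with a difference of 1.41 (SE 0.50, adjusted p = 0.9996), ATF4 with 1.33 (SE 0.54, adjusted p = 0.9996) and SHMT2 with 0.90 (SE 0.42, adjusted p = 0.9996). The median difference was 1.33 for regulators, with 9 of 9 above 0, 0.51 for amino acid genes, with 8 of 8 above 0, and −0.21 for chaperones, against 0.00 for all genes. Without vector replicate 3 the medians were 1.66, 0.67 and −0.28, with 0 members called and 0.0360% of all genes passing.

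Chaperones and amino acid genes were last set against each other. In each library the median over members, as log2 distance from the member's mean, was taken for each role. The chaperone median minus the amino acid median was 0.47, 0.27 and −0.37 in vector, in the order of the replicates, −0.11 and −1.09 in TIF1γ, 0.14 in sh-NC, and 0.22 and 0.30 in sh-TAF15. Chaperones minus regulators gave 0.53, 0.34 and −0.95 in vector, −0.58 and −1.98 in TIF1γ, 0.32 in sh-NC, and 1.22 and 1.05 in sh-TAF15. On both measures vector replicate 3 lay within the range of the TIF1γ libraries, TIF1γ replicate 3 was lowest, and the sh-TAF15 libraries were the highest in chaperones minus regulators. Over fitted fold changes, the chaperone median minus the amino acid median was −0.64 for TIF1γ minus vector, but −0.0659 without TIF1γ replicate 3 and −0.84 without vector replicate 3. It was 0.31 for sh-TAF15 minus sh-NC. For the sh lines against the vector and TIF1γ lines it was 0.39, but 0.85 without TIF1γ replicate 2 and 0.0943 without TIF1γ replicate 3. These differences of medians were described and not tested.

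**Figure D5:**
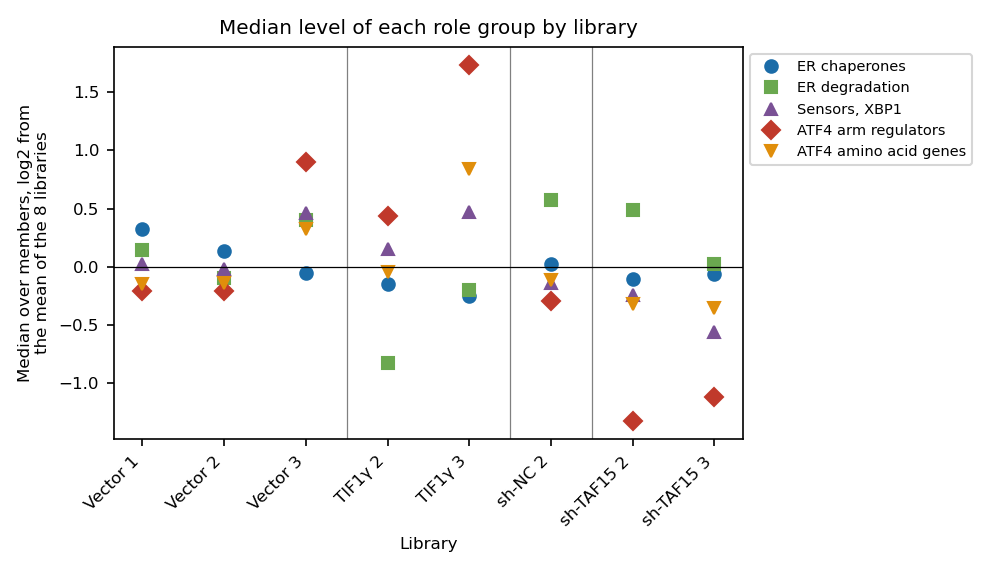
Median over the members of each role in each of the 8 libraries, as log2 distance from the member's mean over libraries (vertical axis). The regulators are highest in TIF1γ replicate 3 and lowest in the sh-TAF15 libraries, and vector replicate 3 lies apart from the other vector libraries.

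Further genes of the pathway came from 5 lists outside the 37, of which 81 genes were tested. In the sh lines against the vector and TIF1γ lines, 15 were called higher and 22 lower by limma, beside 19.9% and 21.6% of all genes. Log2 fold changes are given with limma's adjusted p. The ATF4-linked amino acid list gave 0 higher and 7 lower of 15, with a median of −0.92, led by the proline enzyme PYCR1 (log2 fold change −2.10, adjusted p = 9.65e-06), the mitochondrial carboxykinase PCK2 (−2.90, adjusted p = 6.48e-04) and the cytosolic serine enzyme SHMT1 (−1.09, adjusted p = 9.34e-04). PCK2 was at 27.9 to 68.7 FPKM in vector, 70.6 and 150.4 in TIF1γ, and 7.78 to 10.7 in the sh libraries, with every sh library below every other. The ATF4 stress list gave 1 higher and 5 lower of 13, led by the C/EBP family member CEBPD (−2.46, adjusted p = 2.04e-06), the secreted stress factor GDF15 (−1.70, adjusted p = 6.23e-05) and the translation repressor EIF4EBP1 (−1.38, adjusted p = 3.06e-04). That list's median was −0.00, with 6 of 13 above 0. With the GC trend removed the medians of the amino acid and stress lists were −0.44 and −0.11.

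The other lists were mixed, and all counts here stand beside the same 19.9% higher and 21.6% lower over all genes. The folding and secretion list gave 7 higher and 4 lower of 25, with the lowest adjusted p for CDK2AP2 (−1.16, adjusted p = 9.65e-04), the prolyl isomerase FKBP2 (−1.16, adjusted p = 0.00219) and its relative FKBP14 (1.22, adjusted p = 0.00252). The degradation list gave 2 higher and 4 lower of 13, with the lowest adjusted p for the retrotranslocation protein DERL1 (−0.95, adjusted p = 0.00219), the ligase SYVN1 (−0.91, adjusted p = 0.00456) and DERL3 (adjusted p = 0.00669). DERL3 was listed at 0 in all 3 sh libraries and was at 0.63 to 1.904 FPKM in the others, so no fold is given. The list of stress kinases and factors gave 5 higher and 2 lower of 15, with EIF2S1, the α subunit of eIF2 (1.28, adjusted p = 5.73e-04), the eIF2α phosphatase subunit PPP1R15A (−1.09, adjusted p = 0.00165) and the AP-1 family member JDP2 (−0.97, adjusted p = 0.00681). For TIF1γ, for TAF15 silencing and for the difference of their effects, 0 of the 81 were called, with 12 higher and 7 lower for the first, 2 higher and 3 lower for the next and 5 higher and 0 lower for the last at an unadjusted p under 0.05. The shares of all genes were 8.89% and 11.1%, 3.51% and 2.08%, and 1.72% and 1.93%. For TIF1γ without vector replicate 3, limma called PYCR1 (1.05, adjusted p = 0.0449) and PCK2 (1.76, adjusted p = 0.0449) higher. SEC62 (−1.13, adjusted p = 0.0437) was called lower, where 2.20% of all genes passed. The median of the amino acid list for TIF1γ was 0.62, and 1.05 without that library. No other value of the lists is given without it. NIBAN1, named next, was low in vector, at 0.364 to 0.727 FPKM. It was at 6.72 FPKM in the lone sh-NC library and at 1.98 and 1.67 in sh-TAF15. In sh-NC minus vector, where 3.73% of all genes were called higher and 7.31% lower, 2 of the 81 were called higher, EIF2S1 (1.21, adjusted p = 0.0287) and NIBAN1 (2.25, adjusted p = 0.00231), and 6 lower, namely FKBP2 (−1.30, adjusted p = 0.0336), PYCR1 (−1.50, adjusted p = 0.00922), SHMT1 (−1.32, adjusted p = 0.0117), PCK2 (−2.35, adjusted p = 0.0365), GDF15 (−1.92, adjusted p = 0.00184) and CEBPD (−2.25, adjusted p = 5.48e-04).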

How the data were processed

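FPKM per gene, as the authors deposited them, were used for 8 of the 12 samples in the labels, and the other samples were not analysed here. The submitters' processing notes name cutadapt 1.9.1, HISAT2 2.0.1, HTSeq 0.6.1 and GRCh37, and how FPKM were made from the counts is not given in the sources used here. Of 57879 identifiers 51983 had a symbol in GENCODE 29 (GRCh38), which served for names, GC content and length. Promoter sequences are RefSeq's, from GRCh38.p14.

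The filter kept genes that reached 1 FPKM in 2 or more libraries. For 19 genes an exact 0 stood beside 100 FPKM or more in another library. They were set aside, 11 of them past the filter, which left 13907 genes. Libraries were scaled to their common mean by trimmed log2 ratios, with 30% trimmed by ratio and 5% by abundance at either end, and a pseudocount of 1 was added before log2, which draws fold changes of low genes toward 0. Limma 3.58.1 in R 4.3.3 (lmFit, eBayes with trend and robust) was fitted to all 4 groups with no covariate (4 residual degrees of freedom), with Benjamini-Hochberg adjustment, and calls are at adjusted p below 0.05. The fit was tested on simulated data. The plan named a count model only for files of counts, and these hold none.

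The members and lists were chosen with earlier results of these data known. The naming rule gives values in every library for 19 fixed members, for every called member and for the 3 with the lowest adjusted p per comparison, and, from the other lists, up to 3 called genes with the lowest adjusted p. Members named beyond it were chosen after their values were seen. Alternatives changed the pseudocount, filter, scaling, GC and length trend, replicate block, variance model, libraries in the fit and genes set aside, and left out each library in turn. The GC and length trend removed together with vector replicate 3 left out was added after the data were seen.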

Additional observations from a re-analysis of the deposited data

How the results depend on the processing

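Of the 5 comparisons, sh-TAF15 minus sh-NC kept 0 called members under every alternative that gave a value, and no called member changed direction in any. For TIF1γ minus vector the count was 0 to 2 with 1 library left out (2 without vector replicate 3), and its chaperone median minus amino acid median was −1.07 at the lowest and −0.0659 at the highest with 1 library left out (the latter without TIF1γ replicate 3). For the difference of the effects that median difference ran from −1.33 to −0.38, and for the sh lines from 0.0943 to 0.85. For sh-NC minus vector the count was 2 to 5 with 1 library left out. For the sh lines against the vector and TIF1γ lines it was 12 to 19 with 1 library left out (12 without sh-TAF15 replicate 2), 10 with no filter on low values, 10 with the GC and length trend removed, and 10 with that trend removed and vector replicate 3 left out, which was chosen after seeing the data. The cause of these shifts was not tested. With the replicate block the count was 1 for TIF1γ minus vector and 1 for the difference of the effects, both CHAC1, 3 for sh-NC minus vector and 16 for the sh lines, and for sh-TAF15 minus sh-NC the chaperone median minus amino acid median was 0.64 (0.60 with the GC and length trend removed as well), against 0.31 without it. With the replicate block and the GC and length trend removed it was 1 for sh-NC minus vector and 8 for the sh lines. The labels give replicate numbers but no shared source. Over 13907 genes the difference of replicate 3 and replicate 2 correlated at 0.15 between vector and TIF1γ. The correlation was −0.32 between vector and sh-TAF15 and −0.24 between TIF1γ and sh-TAF15. Whether libraries with the same number shared any handling was not tested. Without scaling, the median of all genes shifted by 0.16 in sh-NC minus vector and 0.15 for the sh lines. Without the lone sh-NC library the comparisons that need it gave no value, and depth in reads is unknown, so no counting limit is given.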
